A study of Mus musculus with 2 samples.

Results

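The genes described here encode the matrix metalloproteinases (Mmp), the ADAM proteases (Adam), their secreted relatives with thrombospondin repeats (Adamts), the ADAMTS-like proteins (Adamtsl), and the tissue inhibitors of metalloproteinases (Timp). They were chosen by symbol, from probe sets that the platform annotation assigns to 1 gene, and where a gene had several, the one with the highest mean of both arrays stood for it. This gave 83 genes of 19946 with a probe set of their own, namely 22 Mmp, 34 Adam, 18 Adamts, 5 Adamtsl and 4 Timp genes. Mmp15 and Adamts2 were not analysed here.

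The series holds 2 Affymetrix whole-transcript arrays of mouse embryonic fibroblasts, connective tissue cells cultured from embryos. Both cultures carried an adenovirus expressing LacZ, the bacterial beta-galactosidase that often serves as an inert cargo, and both were kept for 7 h in DMEM with 1% serum. One culture received DMSO, the solvent, and the other 250 nM celastrol, a triterpenoid from the thunder god vine. With 1 array per condition no spread between cultures, test or standard error was available, so an effect of the compound cannot be told apart from one of the single culture or its array. No sample without the virus was analysed here.

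The matrix around fibroblasts is remodelled by zinc-dependent proteases. Mmp enzymes are made as inactive precursors and cut collagens, basement membrane and other matrix proteins. Adam proteins sit in the cell membrane, and the catalytic ones release the outer parts of other membrane proteins, such as growth factors and cytokines. Adamts enzymes are secreted, and separate branches cut proteoglycans, trim procollagens or act on microfibrils and clotting proteins. Timp proteins block Mmp enzymes and some Adam and Adamts enzymes, and fibroblasts are a well-known source of several of these components.

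Values are on the log2 scale, so a difference of 1 is a 2-fold change. A gene was called detected when 1 or both of its values lay over 5.73. That limit is the 95th percentile of the values of 1205 probe sets for odorant and pheromone receptors, genes of sensory neurons. The limit was passed by 13899 genes in all and by 44 of the 83 members, 42 of them in both arrays. The detected members were 13 Mmp, 9 Adam, 15 Adamts, 4 Adamtsl and 3 Timp genes. Values of different probe sets depend on their probes, so levels are compared between arrays and never between genes. Where a pair of values is given for a gene, the DMSO value comes first.

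Most of the detected members differed little between the cultures, and 7 stood out by at least 1.5-fold. Mmp13 and Mmp19 were higher with celastrol, and Adamts5, Adamts4, Mmp9, Adamts1 and Timp3 were lower. Mmp13 was the 1 member at least 2-fold higher, in a background of 1.89% of all detected genes, and Adamts5 the 1 member at least 2-fold lower, in a background of 0.662%. At 1.5-fold the counts were 2 of 44 higher and 5 of 44 lower, where all detected genes gave 6.19% and 4.68%. The other 37 detected members lay within 1.5-fold. The median difference was -0.09 over the detected members and -0.01 over all detected genes. Of the members, 17 were higher and 27 lower, where 48.1% and 51.9% of all detected genes were. These counts hold 2 members over the limit on 1 array alone, Adamts13 (higher) and Mmp3 (lower), which fixes their direction. The median was -0.08 for Mmp, 0.08 for Adam, -0.28 for Adamts, -0.05 for Adamtsl and -0.15 for Timp genes.

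**Figure D1:**
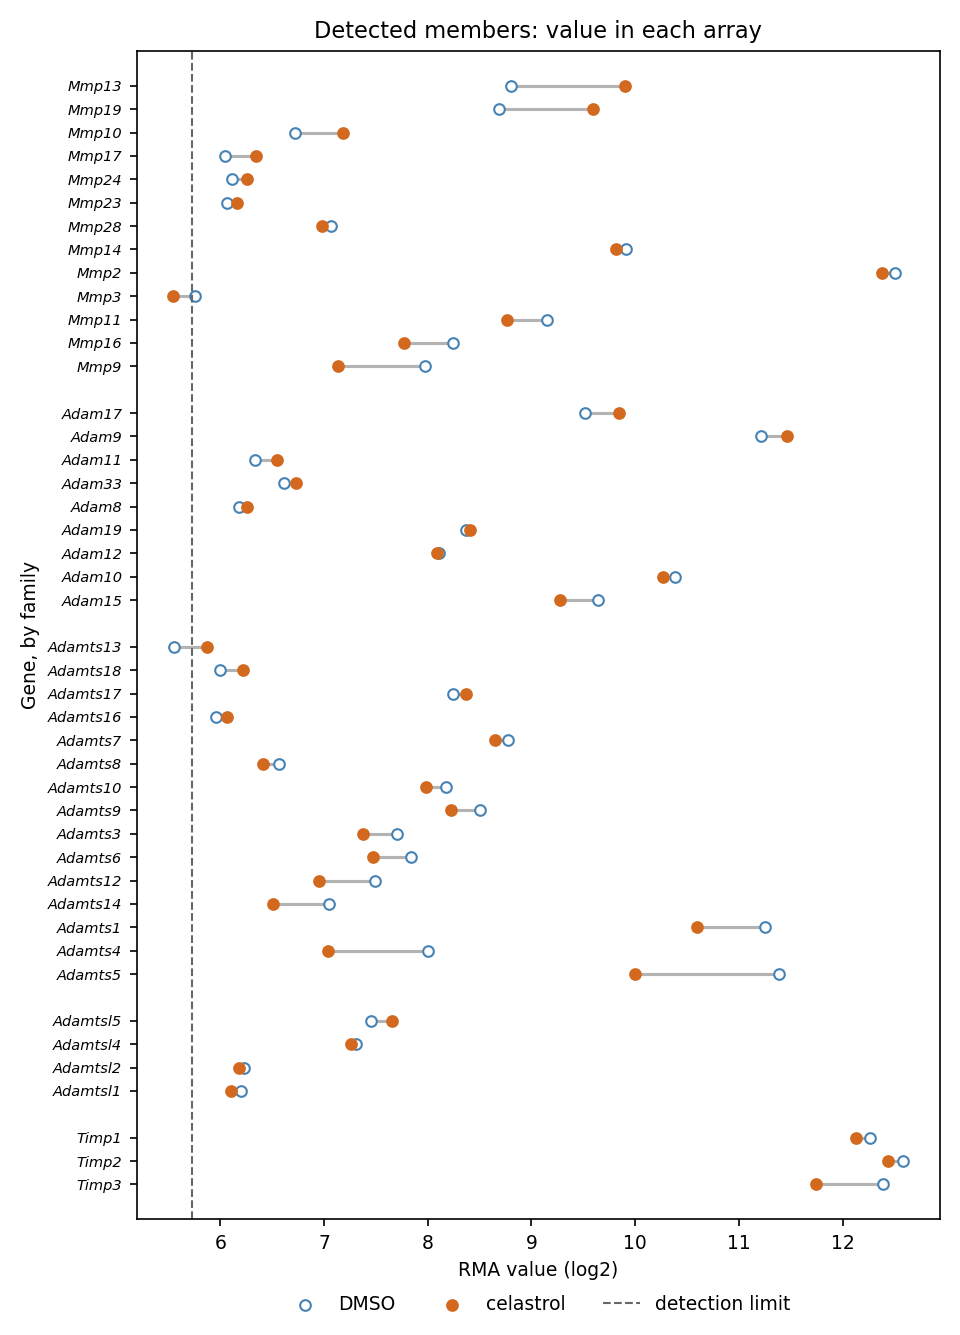
RMA value (log2, horizontal axis) of each of the 44 detected members with DMSO (open circles) and celastrol (filled circles), grouped by family and ordered by difference, with the detection limit of 5.73 as a dashed line. The longest lines belong to Adamts5, which stood at 11.39 and 9.99, and to Mmp13, which stood at 8.81 and 9.90.

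Collagenases are named for cutting fibrillar collagen. Of the 4 genes placed in that group here, Mmp13 alone was detected. It stood at 8.81 with DMSO and at 9.90 with celastrol, a difference of 1.09 or 2.13-fold, and 1.45% of all detected genes had a difference as high. The other genes of that group, Mmp1a, Mmp1b and Mmp8, lay under the detection limit on both arrays. Mmp19, which cuts basement membrane proteins, was the second high member, at 8.69 and 9.60 or 1.87-fold. A difference as high was found in 2.53% of all detected genes.

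The gelatinases, which digest denatured collagen and type IV collagen, differed from each other in size. Mmp9, the inducible gelatinase, was at 7.98 with DMSO and at 7.14 with celastrol, 1.79-fold lower, and 1.39% of detected genes lay as low. Mmp2, the gelatinase that fibroblasts make without induction, was at 12.51 and 12.38. Mmp2 thus lay within 1.10-fold, against 1.79-fold for Mmp9. Mmp14, the membrane-bound enzyme that activates the Mmp2 precursor together with Timp2, also differed little, at 9.91 and 9.82.

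Stromelysins 1 and 2 cut proteoglycans and other matrix proteins. The genes named stromelysin that were over the limit on both arrays went both ways. Mmp10 (stromelysin 2) was at 6.72 with DMSO and at 7.19 with celastrol, 1.38-fold higher. Mmp11 (stromelysin 3) was at 9.15 and 8.76, 1.31-fold lower. Mmp3 (stromelysin 1) passed the limit by a narrow margin with DMSO alone, at 5.76 and 5.55, so no fold is given. Among membrane-type enzymes other than Mmp14, Mmp16 was at 8.24 and 7.78, 1.38-fold lower. Mmp17, which is held by a lipid anchor, was at 6.05 and 6.35, and Mmp24, known from neurons, at 6.12 and 6.25. Mmp25, a leukocyte enzyme, was not detected. The remaining detected members were Mmp28 (epilysin), at 7.06 and 6.98, and the membrane-anchored Mmp23, at 6.07 and 6.16. All of these lay inside 1.5-fold. Mmp7, Mmp12, Mmp20, Mmp21 and Mmp27 were under the limit on both arrays.

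**Figure D2:**
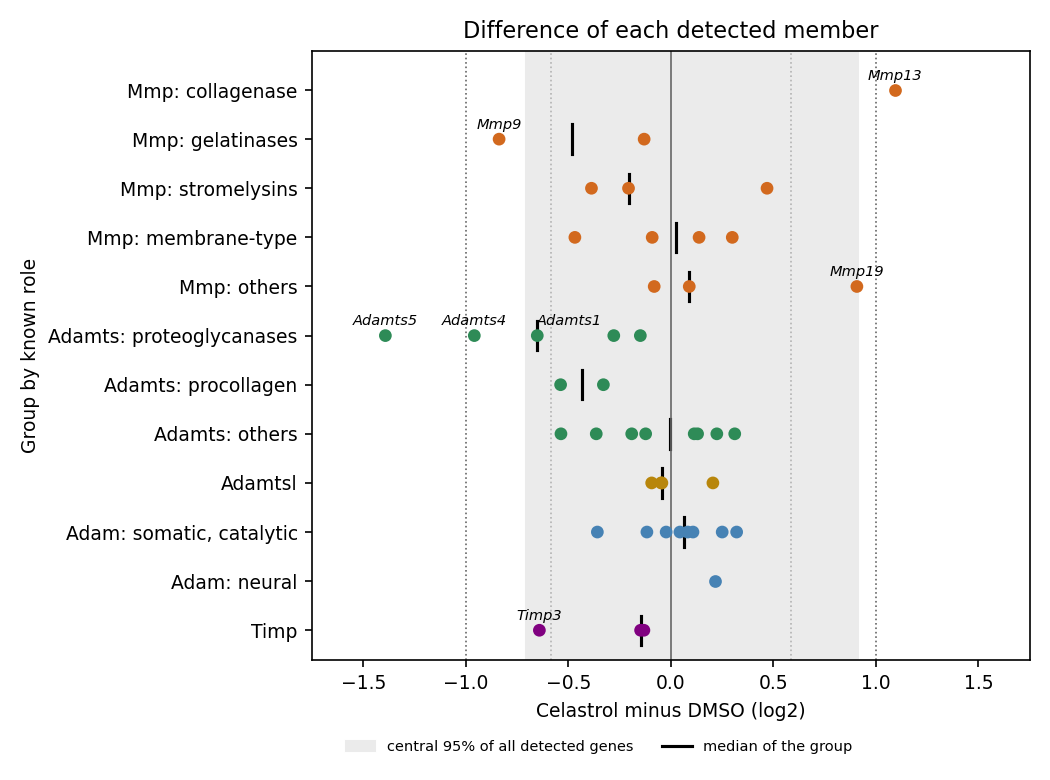
Celastrol minus DMSO (log2, horizontal axis) of each detected member, grouped by known role, with the median of each group of more than 1 gene as a black bar, the central 95% of all detected genes (-0.71 to 0.91) shaded, and dotted lines at 1.5-fold and 2-fold. All 5 proteoglycanases lie left of 0, and Mmp13 is the 1 member right of the shaded range.

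Of the 10 Mmp genes that follow each other on chromosome 9, with no other protein-coding gene between them in the RefSeq annotation, 3 were detected. These were Mmp13, Mmp3 and Mmp10, which lie at places 1, 4 and 6 of the run. Mmp13 and Mmp10 were higher with celastrol, by 1.09 and 0.47, while Mmp3 was over the limit with DMSO alone, which fixes its direction. The other 7 genes of the run stayed under the limit on both arrays.

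Promoters of this run are known for an element bound by AP-1, the dimer of Fos and Jun proteins, which is why the sequences of its 3 detected genes are shown. The letters searched were TGANTCA, which read the same on both strands. RefSeq promoter windows (build GRCm38.p6, 250 bases before to 50 after an annotated start) were found for 52 of the 83 members. The element was in a window of 8 of the 10 genes of the run, all but Mmp8 and Mmp27. Of the 42 other members that had a window, 5 held it. Among all 27025 genes with a window the share was 8.97% (7.81% of the 32851 windows). The 250 bases before the start are given from 5′ to 3′ on the gene's strand, with the element in capitals. Mmp13 (chr9:7272264-7272513), Mmp10 (chr9:7502092-7502341) and Mmp3 (chr9:7445572-7445821) lie on the plus strand.
Mmp13: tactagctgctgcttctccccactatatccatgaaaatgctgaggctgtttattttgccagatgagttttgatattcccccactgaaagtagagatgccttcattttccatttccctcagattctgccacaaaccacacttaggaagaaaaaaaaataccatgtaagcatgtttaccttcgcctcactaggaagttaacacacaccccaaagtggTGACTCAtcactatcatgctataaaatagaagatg
Mmp10: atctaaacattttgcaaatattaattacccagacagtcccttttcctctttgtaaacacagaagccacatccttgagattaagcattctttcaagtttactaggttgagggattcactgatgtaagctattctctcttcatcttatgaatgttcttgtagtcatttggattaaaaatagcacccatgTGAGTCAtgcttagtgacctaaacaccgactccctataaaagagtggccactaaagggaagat
Mmp3: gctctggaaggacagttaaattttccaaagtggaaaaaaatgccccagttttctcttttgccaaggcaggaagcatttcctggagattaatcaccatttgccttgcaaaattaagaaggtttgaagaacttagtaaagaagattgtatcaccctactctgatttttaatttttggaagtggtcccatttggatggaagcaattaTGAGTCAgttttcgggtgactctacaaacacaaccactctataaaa
The first base of the element lies 35 bases before the annotated start in Mmp13, 63 in Mmp10 and 46 in Mmp3. The central letter is C in Mmp13 and G in Mmp10 and Mmp3, which is the same site read from opposite strands. The element was thus shared by the higher Mmp13 and Mmp10, by Mmp3 and by 5 genes of the run that were not detected. Outside the run the detected Adam19 held it too, at 8.37 and 8.41. These are matches of letters only, and binding was not measured.

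**Figure D3:**
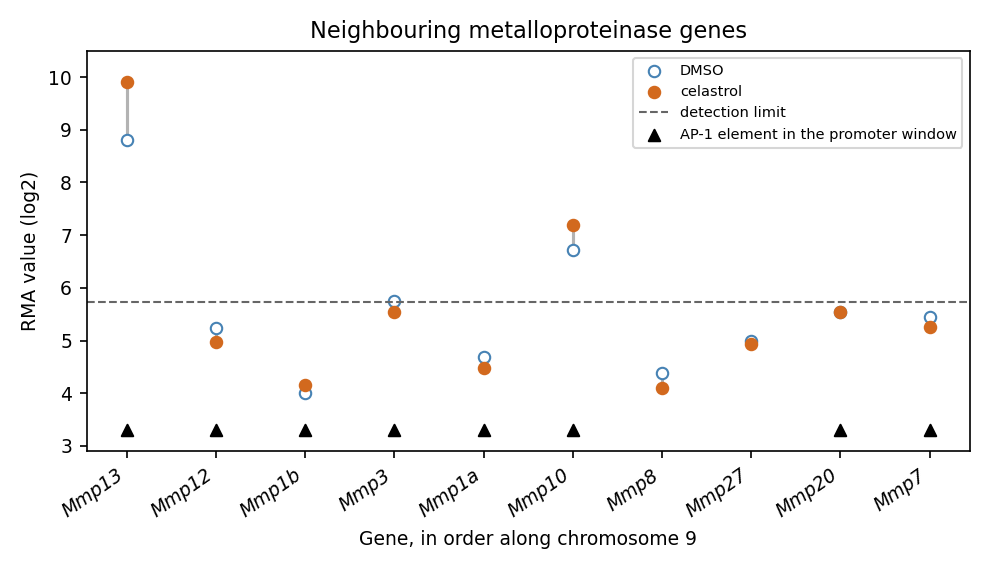
RMA value (log2, vertical axis) of the 10 neighbouring Mmp genes in their order along chromosome 9, with DMSO (open circles) and celastrol (filled circles), the detection limit of 5.73 (dashed) and triangles under the 8 genes whose promoter window holds the AP-1 element. Mmp13 and Mmp10 are over the limit on both arrays, and Mmp3 touches it.

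The Adamts genes of the proteoglycan-cutting branch were lower with celastrol. These enzymes cut aggrecan and versican, the large proteoglycans that hold water in cartilage and soft tissue. All 5 detected members (Adamts1, Adamts4, Adamts5, Adamts8 and Adamts9) had lower values, with a median difference of -0.65, and 3 of the 5 were at least 1.5-fold lower, where 51.9% of all detected genes were lower and 4.68% by 1.5-fold. Adamts15 and Adamts20 of the same branch were not detected. Grouping by role was done after the values were seen, so this count is a description. Adamts5, the main aggrecanase of mouse cartilage, was at 11.39 with DMSO and at 9.99 with celastrol, 2.63-fold lower, and 0.273% of all detected genes lay as low.

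Adamts4, the other aggrecanase named for that activity, was at 8.00 and 7.04, 1.94-fold lower, a place that 0.820% of detected genes reached. Adamts1, which cuts versican, was at 11.25 and 10.60, 1.57-fold lower, with 3.36% of detected genes as low. Adamts1 and Adamts5 are next to each other on chromosome 16, with 0 protein-coding genes between them. The smaller differences were those of Adamts9, another versican-cutting enzyme (8.50 and 8.22), and Adamts8 (6.56 and 6.41). Among transcripts of their proteoglycan substrates, Vcan was at 10.75 and 10.85, Acan at 6.42 and 6.54, and Ncan at 6.35 and 6.49. Bcan, at 5.57 and 6.06, passed the limit with celastrol alone, which fixes its direction. None of the 4 reached 1.5-fold.

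The window of Adamts1 (chr16:85803114-85803363, minus strand) is shown for comparison with those of the Mmp genes, and that of Timp3 (chr10:86300162-86300411, plus strand) because it is the 1 inhibitor past 1.5-fold. Neither holds the AP-1 letters in the 250 bases printed or in the 50 bases after the start, so there are no capitals. That was the more common case, since 13 of the 52 members with a window held the element. A link between the element and the direction of a gene was not tested.
Adamts1: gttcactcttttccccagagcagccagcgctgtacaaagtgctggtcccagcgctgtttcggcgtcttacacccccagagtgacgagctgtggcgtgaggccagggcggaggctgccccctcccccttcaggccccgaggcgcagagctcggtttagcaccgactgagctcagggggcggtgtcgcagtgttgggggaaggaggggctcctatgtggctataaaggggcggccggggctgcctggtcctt
Timp3: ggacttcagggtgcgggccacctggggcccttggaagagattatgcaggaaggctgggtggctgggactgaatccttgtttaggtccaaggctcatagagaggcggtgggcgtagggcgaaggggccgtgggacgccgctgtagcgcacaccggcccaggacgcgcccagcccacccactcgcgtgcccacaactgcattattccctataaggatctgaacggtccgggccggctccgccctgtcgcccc
No promoter window was found for Mmp19, Mmp9, Adamts4 and Adamts5. These genes were therefore not searched for the element, and no sequence is given for them.

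Both detected procollagen-trimming enzymes were lower, with a median difference of -0.43. Adamts14 was at 7.05 with DMSO and at 6.51 with celastrol, 1.45-fold lower. Adamts3, which trims procollagen and activates the lymphatic growth factor VEGFC, was at 7.70 and 7.37 in its brightest probe set. The gene has 16 probe sets, all lower with celastrol, by between 0.03 and 0.96 with a median difference of -0.34, and 13 of them were over the limit. All 6 probe sets of Adamts9 were lower too, with a median of -0.35. Probe sets of a gene share their RNA and are no replicates. Of the 61 genes with at least 5 probe sets over the limit, 55.7% were lower in each such probe set and 13.1% higher in each, so a shared lower direction was common among genes of this design.

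**Figure D4:**
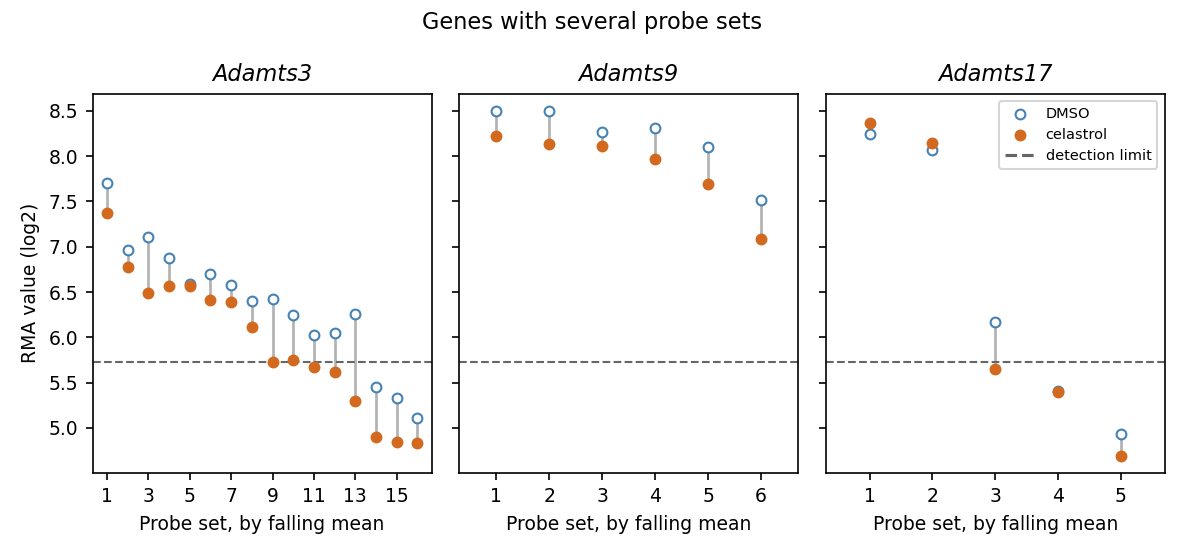
RMA value (log2, vertical axis) of every probe set of Adamts3, Adamts9 and Adamts17 with DMSO (open circles) and celastrol (filled circles), ordered by falling mean, with the detection limit of 5.73 as a dashed line. All 16 probe sets of Adamts3 and all 6 of Adamts9 are lower with celastrol, and those of Adamts17 go both ways.

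The other 8 detected Adamts genes were split evenly, with 4 higher and 4 lower and a median difference of -0.01. Adamts12, which cuts the cartilage protein COMP, was at 7.49 with DMSO and at 6.95 with celastrol, 1.45-fold lower. Its relative Adamts7 was at 8.77 and 8.65. Adamts6 and Adamts10, both tied to fibrillin microfibrils, were at 7.83 and 7.47 and at 8.18 and 7.99. The higher ones were Adamts16 (5.95 and 6.07), Adamts17 (8.24 and 8.37), Adamts18 (6.00 and 6.22) and Adamts13, the enzyme that cuts von Willebrand factor. Adamts13 passed the limit with celastrol alone, at 5.56 and 5.87, so its place among the 4 higher was fixed by the limit. For Adamts17 the direction depended on the probe set, with 2 of the 3 probe sets over the limit higher and 1 lower (6.17 and 5.65). Adamts19 was not detected.

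The Adamtsl proteins lack the protease domain and bind matrix fibres. None of the 4 detected genes reached 1.5-fold. Adamtsl5 was at 7.45 with DMSO and at 7.66 with celastrol, and Adamtsl4, a partner of fibrillin, at 7.31 and 7.26. Adamtsl2, which also binds microfibrils, was at 6.23 and 6.18, and Adamtsl1 at 6.20 and 6.10, with a difference of 0.08 in its second probe set. Adamtsl3 was under the limit.

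The Adam family showed the smallest range among the protease families, from -0.36 to 0.32 over its 9 detected genes, with 6 higher, 3 lower and none past 1.5-fold. Adam17, which releases TNF and EGF receptor ligands, was at 9.52 with DMSO and at 9.84 with celastrol, 1.25-fold higher. Adam10, the protease that makes the first activating cut in Notch receptors, was at 10.38 and 10.27. Adam9, a widely made protease, was at 11.21 and 11.46, 1.19-fold higher, and Adam15, known from endothelium, at 9.64 and 9.28, 1.28-fold lower. Adam17 and Adam15 were the family's detected members farthest from 0 on either side.

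Adam12 and Adam19, the meltrins of muscle and heart development, stood at 8.11 and 8.09 and at 8.37 and 8.41. Adam33 was at 6.62 and 6.73, and Adam8, best known from leukocytes, at 6.18 and 6.26. Adam11, a neural member without protease activity, was at 6.33 and 6.54. The other 25 Adam genes were not detected. They include the fertilins Adam1a, Adam1b and Adam2 and other sperm and testis genes such as Adam3, Adam5, Adam18 and Adam32, and their values ran from 3.67 to 5.56. Differences among these 25 ran from -0.35 to 0.47, a wider range than that of the detected Adam genes.

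All 3 detected inhibitors had lower values with celastrol, where 51.9% of all detected genes were lower. Of these 3, Timp3 alone was at least 1.5-fold lower, as were 4.68% of all detected genes. Timp3, which binds to the matrix and blocks Adam17 and the Adamts aggrecanases besides Mmp enzymes, was at 12.39 with DMSO and at 11.75 with celastrol, 1.56-fold lower, and 3.58% of detected genes lay as low. Timp1, a soluble inhibitor, was at 12.27 and 12.13, and Timp2, which takes part in Mmp2 activation, at 12.58 and 12.44. Both lay within 1.11-fold. Timp4, known from heart and fat, was not detected, at 5.03 and 4.88. Adamts4 and Adamts5, which Timp3 blocks, were lower on the same arrays.

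**Figure D5:**
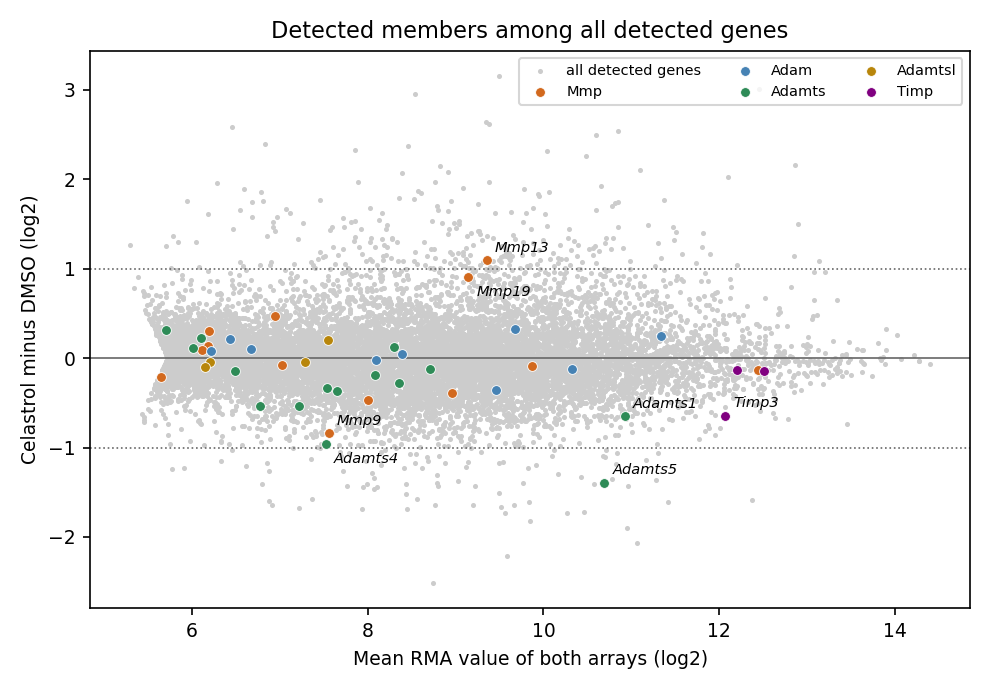
Difference between celastrol and DMSO (log2, vertical axis) against the mean RMA value of both arrays (log2, horizontal axis) for all 13899 detected genes (grey) and the detected members by family (coloured), with dotted lines at 2-fold. The 7 labelled members differ by at least 1.5-fold, and the others lie within the bulk of the genes.

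Genes that act with these proteases differed in several places. In plasminogen activation, a cascade that can activate Mmp precursors, 3 of the 6 detected genes were higher by 1.5-fold or more and 1 was lower by that much, where all detected genes gave 6.19% and 4.68%. Plaur, the urokinase receptor, was at 9.22 with DMSO and at 10.12 with celastrol, 1.86-fold higher. Plat, tissue plasminogen activator, was at 9.51 and 10.19, 1.60-fold higher, and Serpinb2, an inhibitor of both activators, was at 8.88 and 9.49, 1.53-fold higher. Plgrkt, a plasminogen receptor, was at 8.62 and 7.68, 1.93-fold lower. Plau, urokinase itself, was at 8.79 and 9.32.

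Of the 8 detected partners of Adam10 and Adam17, 3 were at least 1.5-fold higher and 0 lower by that much, beside the same 6.19% and 4.68%. Frmd8, which stabilises the iRhom carriers of Adam17, was at 8.54 and 9.28, 1.66-fold higher. Tspan5 and Tspan15, tetraspanins that escort Adam10, were at 9.24 and 9.88 and at 7.45 and 8.08, or 1.55-fold and 1.54-fold higher. The iRhom genes Rhbdf1 (9.07 and 9.12) and Rhbdf2 (7.29 and 7.44) differed less, and the tetraspanin gene Tspan17 was at 8.88 and 8.57, 1.24-fold lower. These partners thus included larger differences than Adam10 and Adam17 did.

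None of the 4 proprotein convertases, which remove the prodomains of many of these enzymes, reached 1.5-fold, with Furin at 9.45 and 9.67. None of the 3 detected astacin proteases did either, with Bmp1, the procollagen C-proteinase, at 10.52 and 10.39. Among 8 other inhibitors, inducers and scavengers, 1 was at least 1.5-fold lower and none higher. That gene was Sfrp1, a secreted Wnt antagonist also described as an Adam10 inhibitor, at 9.50 and 8.60 or 1.86-fold lower. Reck, a membrane-anchored Mmp inhibitor, was at 6.66 and 6.34, and Bsg, an inducer of Mmp genes in neighbouring cells, at 11.83 and 11.65.

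The label of the cells was checked against marker genes. Of 10 measured fibroblast markers 9 were detected, and Lum was not. With celastrol 7 of the 9 were lower and 2 higher (Pdgfra and Vim), with a median difference of -0.24. Over all detected genes, 51.9% were lower and 48.1% higher, with a median of -0.01. S100a4, a calcium-binding protein gene, was at 11.14 and 10.26, 1.84-fold lower and the 1 marker of this list past 1.5-fold, and Col1a1 (-0.46), Col1a2 (-0.42) and Pdgfrb (-0.41) followed. The part of these markers in the lower values of Adamts and Timp genes was not tested. In bulk RNA, fewer cells of a type and less RNA per cell cannot be told apart. Macrophages are another source of Mmp9, Mmp12, Mmp19 and Adam8, and 3 of 8 macrophage markers were detected, with Cd68 2.76-fold and Cd14 1.63-fold higher and Csf1r at 5.99 and 6.25. The defining markers Ptprc, Adgre1, Itgam, Aif1 and Lyz2 were under the limit on both arrays, and the sum of the 8 markers on the linear scale was 463 with DMSO and 765 with celastrol. Cd68 alone, at 117 and 322 on that scale, makes up most of that difference, so the sum does not describe the list as a whole. Their part in the Mmp19 and Mmp9 values was not tested. Of the measured markers of other cell types, 4 of 7 endothelial, 4 of 5 epithelial, 1 of 5 germ cell and 3 of 5 cartilage and bone genes were detected. None of these reached 1.5-fold. Over all genes, 13899 of 19946 were detected, so detection of markers alone is a weak check of the label.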

How the data were processed

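Transcript levels were measured on 1 array of cells given DMSO and 1 array of cells given celastrol. The deposited values are log2 values that the authors made with RMA, per the submitters' processing notes, a method that corrects background, equalises the arrays' distributions by quantiles and summarises probes into probe sets. The RMA version and settings and the genome build were not given in the sources used here. A base of 2 was read from the values, which run from 2.73 to 14.5. RMA compresses differences of dim probe sets. The number of arrays limits the precision, and background and saturation were not examined.

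Of 35556 probe sets, 21797 name 1 gene, 1613 several and 12146 none, by GEO's platform annotation. The members hold 108 probe sets, and 4 members have more than 1. Another 2 probe sets name a member among several genes and were not used. All 83 members were found in the RefSeq gene table for GRCm38.p6, which served for names and neighbours, and promoter sequences are RefSeq's for that build. The difference is celastrol minus DMSO, with no test. Thresholds were 2-fold and 1.5-fold. The members, groups and lists were chosen with earlier results of these data known, and the role groups were drawn up after the values were seen. Genes named by rule were all Timp genes, every detected Mmp gene and, in the other families, those past 1.5-fold and the 3 brightest. The other members are named in addition. The planned look at protein motifs was not run. Alternatives were the median of all probe sets (6.34) as the detection limit or no limit, averaging all probe sets of a gene, quantile normalization, removing the median difference or a lowess trend (fraction 0.3), and 3-fold in place of 2-fold. The code for the difference per gene and for quantile normalization was checked on simulated data without noise. The other steps were not checked in this way. Python 3.11.15, numpy 2.4.6, pandas 2.3.3, statsmodels 0.14.6 and matplotlib 3.10.9 were used.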

Additional observations from a re-analysis of the deposited data

How the results depend on the processing

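At a 3-fold threshold, 0 members were higher and 0 lower, in place of 1 and 1 at 2-fold. Under each of the other 6 alternatives the counts stayed at 1 higher and 1 lower at 2-fold and at 2 higher and 5 lower at 1.5-fold. Ranges over these alternatives were 1.09 to 1.15 for Mmp13, 0.91 to 0.96 for Mmp19, -0.84 to -0.80 for Mmp9, -1.39 to -1.36 for Adamts5, -0.96 to -0.92 for Adamts4, -0.66 to -0.63 for Adamts1 and -0.64 to -0.62 for Timp3. Each of these genes has 1 probe set, so changing the detection limit or averaging probe sets could not alter its difference. Quantile normalization repeated a step that RMA includes. The narrow ranges therefore say little about how stable these differences are. The family medians ran from -0.09 to -0.05 for Mmp, 0.04 to 0.11 for Adam, -0.35 to -0.17 for Adamts, -0.15 to -0.13 for Timp and, changing sign, -0.05 to 0.08 for Adamtsl genes. Adamts17 turned from 0.13 to -0.11 with the mean of its probe sets, 3 of which were lower. Of 83 members, 35 passed the stricter detection limit. No paired analysis was possible because each group holds 1 array, and no array could be left out. With no replicates, the spread between cultures is unknown. For dim genes, signal near background limits what can be seen: 1205 receptor probe sets had a central 95% of differences from -0.42 to 0.41.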
